A study of Mus musculus with 6 samples.

Results

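The forkhead family holds the transcription factors named Fox, after the fly gene fork head. Members were taken by gene symbol, as Fox followed by a letter from a to s and a number, and Foxd3, Foxm1 and Foxo1 were left out by the same rule. Of 22180 genes measured, 40 were members, from 17 lettered subfamilies. They were measured in mouse embryonic stem cells (ESCs) in which the gene for Dgcr8 is knocked out (Dgcr8-/-), on single-colour arrays from total RNA. All 6 samples share this deletion, so canonical miRNAs, whose primary transcripts need Dgcr8 to be cut, are missing from both groups except for what was added. The hairpin expressed was a control hairpin (shctrl) in 3 samples and sh-miR-302 in the other 3, which the labels also describe as mimics of miR-302. No strain, clone, promoter or time of expression is given, and the 3 samples within each group are stated to be biologically independent. The family was compared between these groups to see which forkhead genes differ when miR-302 is put back into cells that lack other canonical miRNAs.

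Forkhead proteins bind DNA through a winged-helix domain of about the same fold in every member, and most differ in where they are made rather than in what sequence they recognise. Foxa proteins can open closed chromatin ahead of endoderm genes, FoxO proteins are held out of the nucleus when AKT phosphorylates them, and Foxh1 carries the Smad proteins of the Nodal pathway to their target genes. Some members, such as Foxk1, Foxk2, Foxj3 and Foxn3, are made in many tissues, while many others mark single lineages and come on with differentiation.

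miR-302 is a cluster of related miRNAs that is abundant in pluripotent cells, and a miRNA finds its targets mainly through its seed, bases 2 to 8. The sequences below are the mature 3p strands of miR-302b, miR-302c and miR-302d in RefSeq (GRCm38.p6), with the seed in capitals. They are shown because miR-302 is what separates the groups. The strand of miR-302a was not found in the sequences used here. The labels do not say which member of the cluster the hairpin carries. The strands shown lie on the plus strand at chr3:127545275-127545297, chr3:127545406-127545427 and chr3:127545665-127545687.
mmu-miR-302b-3p: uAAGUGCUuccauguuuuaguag
mmu-miR-302c-3p: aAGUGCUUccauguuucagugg
mmu-miR-302d-3p: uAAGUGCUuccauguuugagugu
As listed, miR-302b and miR-302d share the seed AAGUGCU, and the seed of miR-302c is AGUGCUU.

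On the arrays, miR-302 replicate 1 stood apart from the other samples of its group. It correlated with replicates 2 and 3 at r = 0.990 across genes (Pearson), against r = 0.997 between those 2 arrays, and the control arrays correlated with each other at 0.996 to 0.997. With the control arrays it correlated at 0.986 to 0.987, above the 0.981 to 0.983 of the other miR-302 arrays. Results are therefore also given without it, which leaves miR-302 replicates 2 and 3 against the 3 control arrays. As it was picked for standing apart in these data, a smaller standard error or a call gained without it adds no independent support. Of 8 ESC markers, Nanog, Pou5f1 and Sox2 among them, 0 were called by limma, and 3 had an unadjusted p under 0.05. Among 8 trophectoderm markers (genes of the outer layer of the blastocyst) 6 were higher with miR-302 (Krt18, Krt8, Hand1, Gata3, Eomes and Cdx2), and the mean log2 level of that list lay between 6.51 and 6.65 on the control arrays, at 7.76 on miR-302 replicate 1 and at up to 8.47 on the others. Of 8 feeder fibroblast markers 1 was lower (Thy1) and 7 were not called. Yet the mean of that list lay higher on every miR-302 array (5.30 to 5.43) than on the control arrays (5.20 to 5.27). Its median log2 difference was 0.19.

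Of the forkhead genes Foxi3 showed the widest change. Of the 40 forkhead genes, 5 were higher with miR-302 (Foxi3, Foxo4, Foxk2, Foxk1 and Foxa2), 4 were lower (Foxr2, Foxn4, Foxp1 and Foxo6) and 31 were not called (limma moderated test, Benjamini-Hochberg adjusted p under 0.05 over all genes). The share called was 22.5%, against 16.4% of all genes, of which 7.18% were higher and 9.25% lower. The median log2 difference, miR-302 minus control, was 0.08 for the members and 0.01 for all genes. Differences of 36 members (90.0%) lay within 0.5 on the log2 scale, and so did those of 88.8% of all genes. In these bulk samples fewer cells with a transcript and less of it per cell cannot be told apart.

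The count depends on the level of the rows. All 9 called members lay among the 20 whose mean over the arrays was at or above the median of all genes (6.16). That makes 45.0% of those members, against 26.7% of all genes at that level. Foxr2, with a control mean of 6.66 and a miR-302 mean of 5.90, passed this cut through its control arrays. Of the 20 members below the median 0 were called by limma, against 6.12% of genes there, and Foxn1, Foxc1 and Foxq1 had an unadjusted p under 0.05. When only genes at or above the median were tested, 38.7% of genes were called and 12 of the 20 members, with Foxh1 and Foxp4 added to the higher and Foxn2 to the lower genes. At least 1.5-fold were Foxi3, Foxr2 and Foxn4, or 3 of 40, while 7.04% of all genes were called at that size. The values of the groups did not overlap for 16 of the 40 members, or for 35.8% of all genes. Centring each array on its median left 2 members higher and 4 lower, against 6.48% of all genes higher and 10.2% lower.

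**Figure D1:**
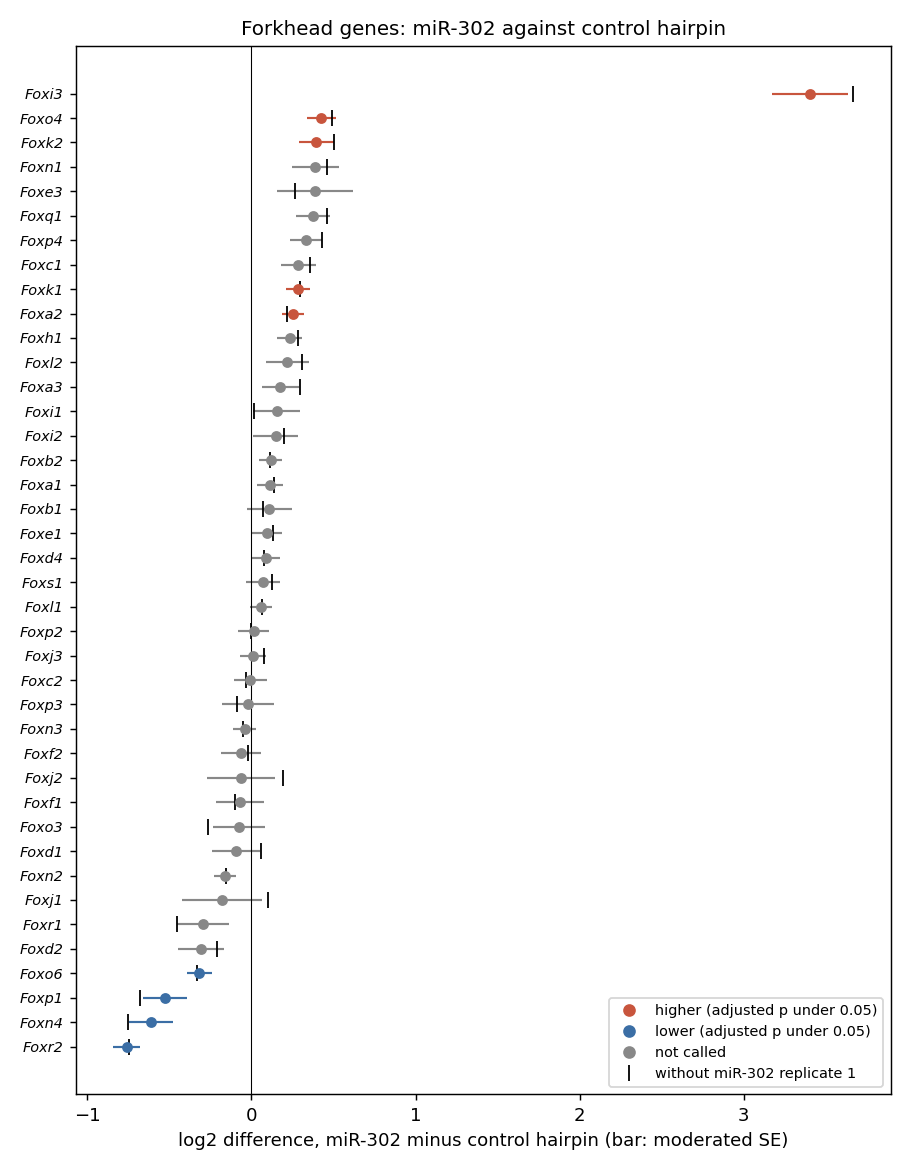
Log2 difference between miR-302 and control hairpin for the 40 forkhead genes, with the moderated standard error as a bar and the value without miR-302 replicate 1 as a vertical tick. Foxi3 stands at 3.40, and every other member lies between -0.76 and 0.43.

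Leaving out 1 array at a time changed most of the calls. Without miR-302 replicate 1, 24.3% of all genes were called and 14 members, 8 higher (Foxi3, Foxo4, Foxk2, Foxk1, Foxp4, Foxh1, Foxq1 and Foxa3) and 6 lower (Foxr2, Foxn4, Foxp1, Foxo6, Foxo3 and Foxr1). Leaving out control hairpin replicate 1, 2 or 3 called 7.79%, 8.03% and 7.86% of all genes, and leaving out miR-302 replicate 2 or 3 called 9.36% and 8.75%. In those 5 fits 2 or 3 members were called. Foxi3 and Foxr2 were called in each of them, Foxo4 also without control hairpin replicate 2, and Foxe3 only without miR-302 replicate 2.

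In the plot of the values on each array, the members range from rows near the level of lowly measured genes to rows well above it. Rows differ in how strongly their probes bind, so these levels give no order of abundance between genes. As a yardstick for genes that ESCs are not known to use, 1088 olfactory receptor genes had a median level of 3.21, and 95% of them lay at or below 5.30. Of the forkhead members, 9 lay at or below that value and 31 above it.

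**Figure D2:**
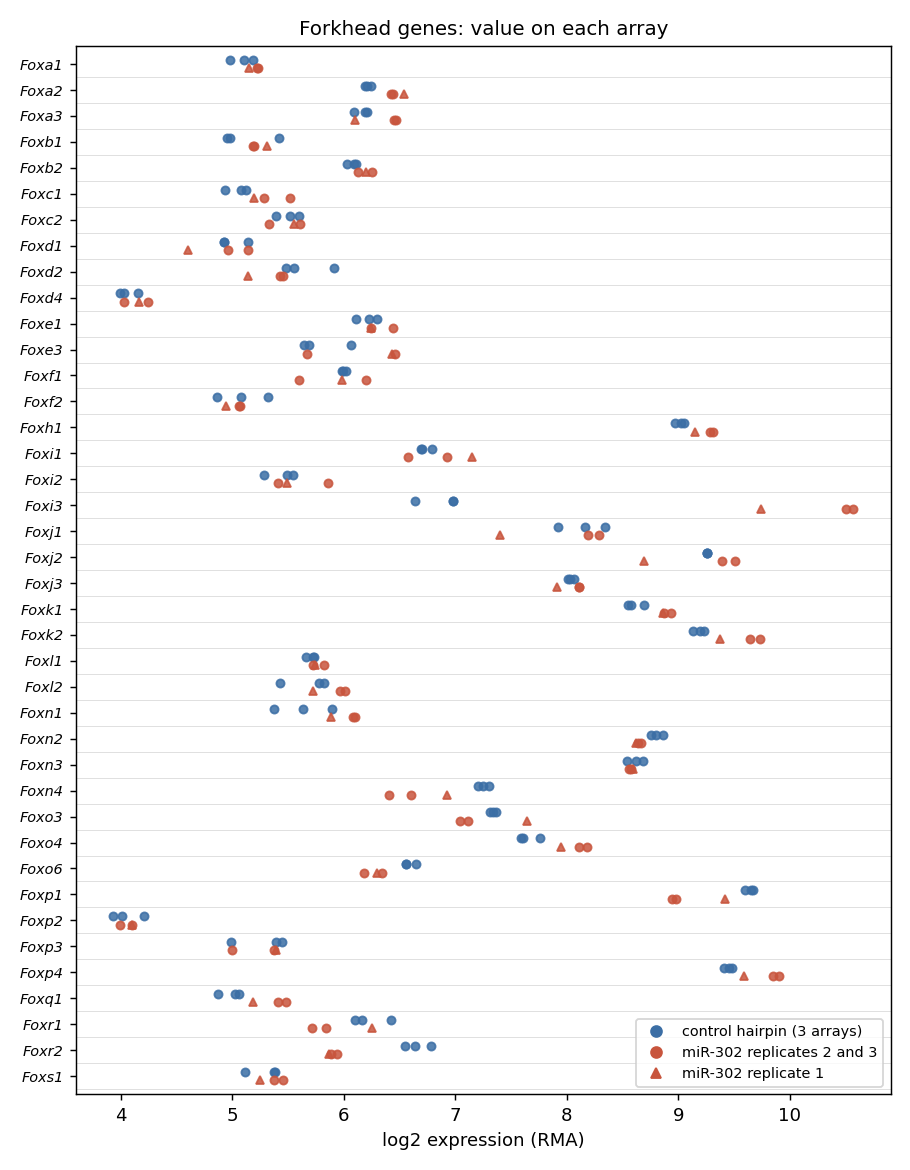
Log2 expression of each forkhead gene on the 6 arrays, with control hairpin in blue, miR-302 in red and miR-302 replicate 1 as a triangle. Foxi3 is the gene whose groups lie farthest apart, and Foxj1 and Foxj2 are 2 genes where replicate 1 lies below the other miR-302 arrays.

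Foxi3, a regulator of early ectoderm that is needed for the pharyngeal arches, ear, teeth and hair, rose most. It read 6.98, 6.64 and 6.98 on the control arrays and 9.74, 10.50 and 10.57 on the miR-302 arrays. Every miR-302 value lay above every control value, and replicate 1 was the lowest of its group. The means were 6.87 ± 0.20 (SD, n = 3) and 10.27 ± 0.46, a log2 difference of 3.40 ± 0.23 (SE) or 10.6-fold (limma, adjusted p = 0.000538). This rise ranked 12 among 22180 genes. Without miR-302 replicate 1 the difference was 3.67 ± 0.12 (SE), and in 14 alternative settings it lay between 3.25 and 3.67 and stayed called, with adjusted p between 6.18e-05 and 0.0144. The mean of the trophectoderm list too was higher on every miR-302 array than on every control array, with replicate 1 the lowest of its group. So was that of primitive endoderm (control 5.614 to 5.725, replicate 1 6.06, others up to 6.23). The mesoderm mean (control 6.06 to 6.07, replicate 1 6.18, others up to 6.42) had the same order. That list holds Hand1, also on the trophectoderm list (control 5.38, 5.52 and 5.86, miR-302 6.73, 7.59 and 7.33). Of its other genes, Twist1 lay above and Tbx6, Kdr and Pecam1 below every control value on replicate 1. Feeder fibroblast means and mesendoderm means (control 5.84 to 5.88, miR-302 6.06 to 6.11) were also higher on every miR-302 array. In those lists replicate 1 was not the lowest. Neuroectoderm and T cell means were lower on every miR-302 array. The part of cells of these kinds in the result was not tested.

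The related genes Foxi1, a factor of ion-transporting cells of the inner ear and kidney, and Foxi2 were not called. Foxi1 read 6.69, 6.70 and 6.79 in control cells and 7.15, 6.57 and 6.92 with miR-302, so that the groups overlapped. Foxi2 means were 5.44 ± 0.14 and 5.59 ± 0.24 (SD, n = 3), and the values of its groups overlapped too.

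The stretches upstream of Foxi3 and of Foxr2, the members with the largest rise and the largest fall, are shown because they differ in the density of CG dinucleotides, the sites of DNA methylation. Each is the 250 bases before an annotated start in RefSeq (GRCm38.p6), on the plus strand, with every CG in capitals, at chr6:70956356-70956605 for Foxi3 and chrX:153118538-153118787 for Foxr2.
Foxi3: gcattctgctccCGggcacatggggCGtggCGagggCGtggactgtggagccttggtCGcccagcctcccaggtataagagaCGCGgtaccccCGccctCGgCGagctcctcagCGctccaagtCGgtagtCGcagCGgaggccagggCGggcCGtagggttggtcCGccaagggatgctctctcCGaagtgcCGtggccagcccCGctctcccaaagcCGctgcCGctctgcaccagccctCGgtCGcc
Foxr2: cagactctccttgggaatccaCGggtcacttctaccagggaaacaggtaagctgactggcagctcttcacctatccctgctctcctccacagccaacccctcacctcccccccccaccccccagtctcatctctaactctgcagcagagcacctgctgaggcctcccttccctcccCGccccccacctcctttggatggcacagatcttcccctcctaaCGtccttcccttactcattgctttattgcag
The Foxi3 stretch holds 24 CG dinucleotides and the Foxr2 stretch 3, against a median of 6 over all 32851 stretches in the table. RefSeq stretches were matched for 26 of the 40 members, 31 in all where a gene has several starts, and their median was 15. Of the other called members with a stretch, Foxk2 and Foxa2, called higher, held 48 and 6 to 20. Foxn4 and Foxp1, called lower, held 17 and 3 to 34. The letters say nothing of methylation in these cells, which was not measured.

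Foxr2, a member found active in some tumours and otherwise restricted to few tissues, fell most. Its control values of 6.78, 6.55 and 6.64 all lay above its miR-302 values of 5.87, 5.88 and 5.94. The means were 6.66 ± 0.12 and 5.90 ± 0.04 (SD, n = 3), so the difference of -0.76 ± 0.08 (SE) on the log2 scale, or 1.69-fold, exceeded the spread of either group (limma, adjusted p = 0.00249). miR-302 replicate 1 did not differ from its group here, and without it the difference was -0.75. All 14 alternative settings kept the call, with adjusted p from 0.00084 to 0.0187. Its paralog Foxr1 read 6.10, 6.42 and 6.16 in control cells and 6.25, 5.71 and 5.84 with miR-302. Of the miR-302 arrays, replicates 2 and 3 lay below the control arrays, and Foxr1 was called lower only when replicate 1 was left out (adjusted p = 0.0392).

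**Figure D3:**
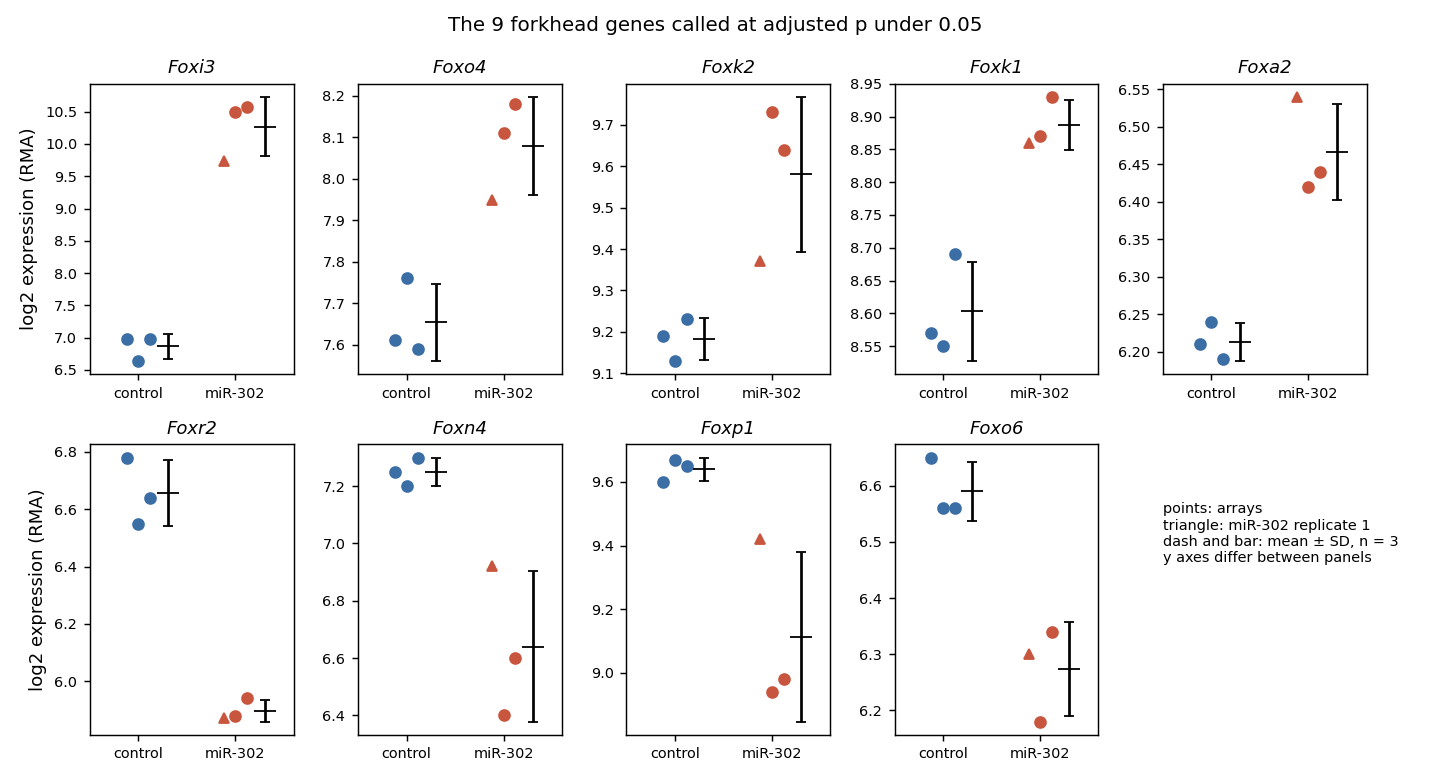
Log2 expression on each array of the 9 forkhead genes with an adjusted p under 0.05, with the group mean and SD beside the points; axes do not start at 0 and differ between panels. In each panel the 3 miR-302 values lie on the same side of the 3 control values, and the span of the axis is widest for Foxi3.

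The FoxO members, which link growth factor signalling to stress resistance and cell cycle arrest, went in different directions. Foxo4 rose, from 7.61, 7.76 and 7.59 in control cells to 7.95, 8.11 and 8.18 with miR-302. This is a log2 difference of 0.43 ± 0.09 (SE), 1.34-fold (limma, adjusted p = 0.0225), and its call was kept without control hairpin replicate 2 and without miR-302 replicate 1, and lost in the other 4 fits with 1 array left out (adjusted p 0.0754 to 0.0874). Foxo6, a mostly neural member that is not shuttled out of the nucleus in the way of the others, fell from 6.65, 6.56 and 6.56 to 6.30, 6.18 and 6.34. Its groups did not overlap, with a difference of -0.32 ± 0.08 (SE; adjusted p = 0.0326).

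Foxo3 read 7.36, 7.34 and 7.31 in control cells and 7.64, 7.04 and 7.11 with miR-302. Replicate 1 thus lay above the control arrays and the other 2 below them, and the gene was not called (adjusted p = 0.810) except without that array, where the difference was -0.26 (adjusted p = 0.0326). Foxo6 kept its call only without miR-302 replicate 1, and lost it without any 1 of the other 5 arrays (adjusted p 0.0655 to 0.114).

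Both Foxk members, factors that act on autophagy and glycolysis genes, rose slightly. Foxk1 went from 8.57, 8.55 and 8.69 to 8.86, 8.87 and 8.93, and Foxk2 from 9.19, 9.13 and 9.23 to 9.37, 9.73 and 9.64. The groups were separate for each gene, with log2 differences of 0.28 ± 0.07 and 0.40 ± 0.11 (SE; limma, adjusted p = 0.0407 and 0.0468). Both calls were kept when miR-302 replicate 1 was left out, and lost when any 1 of the other 5 arrays was (adjusted p 0.0683 to 0.135 for Foxk1 and 0.113 to 0.143 for Foxk2). With arrays centred on their median, adjusted p was 0.0538 and 0.0550.

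The Foxp members, which repress transcription as dimers, split. Foxp1, which in ESCs is made as a splice form with other DNA binding that a gene-level row cannot separate, fell. It read 9.60, 9.67 and 9.65 in control cells and 9.42, 8.94 and 8.98 with miR-302. All 3 miR-302 values lay lower, replicate 1 the least, with a difference of -0.53 ± 0.13 (SE; limma, adjusted p = 0.0408), and -0.68 ± 0.06 without that array (adjusted p = 0.00131). Leaving out any 1 of the other arrays ended the call (adjusted p 0.106 to 0.127). Foxp4 moved the other way without being called, from 9.41, 9.48 and 9.45 to 9.59, 9.85 and 9.90 (0.33 ± 0.10 SE, adjusted p = 0.0625), and was called without miR-302 replicate 1 (adjusted p = 0.00641).

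Foxp2, known from speech and motor circuits, and Foxp3, the factor of regulatory T cells, sat at 4.06 and 5.26 over all arrays, below the olfactory receptor yardstick. Neither was called by limma. Of 5 T cell markers 0 were called by limma, and 3 lay below the yardstick. Cd3e, the 1 marker with an unadjusted p under 0.05, averaged 8.36 in control cells and 7.10 with miR-302, with no overlap (-1.26 ± 0.36 SE, limma adjusted p = 0.0600).

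Foxp1 is shown upstream of 1 of its 3 annotated starts because each of the 3 holds the core letters that forkhead proteins bind, here searched as TAAACA and its reverse complement TGTTTA, which may overlap and then count once for a stretch. The stretch is at chr6:99266516-99266765 (GRCm38.p6, minus strand, RefSeq), with each match in capitals.
Foxp1: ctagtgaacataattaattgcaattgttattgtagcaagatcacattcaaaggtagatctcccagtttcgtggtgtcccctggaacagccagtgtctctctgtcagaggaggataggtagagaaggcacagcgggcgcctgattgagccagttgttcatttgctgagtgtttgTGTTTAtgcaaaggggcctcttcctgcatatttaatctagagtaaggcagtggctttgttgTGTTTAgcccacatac
These letters occur on either strand in 5 of the 31 member stretches (16.1%), which belong to Foxp1, Foxa1 and Foxp3, and in 3952 of all 32851 stretches. The match describes letters only and shows no binding.

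Of the Foxn members, Foxn4 fell. This gene, which guides progenitors of the retina and spinal cord, read 7.25, 7.20 and 7.30 in control cells and 6.92, 6.40 and 6.60 with miR-302. The groups were separate, with a log2 difference of -0.61 ± 0.13 (SE), 1.53-fold (limma, adjusted p = 0.0246). Without miR-302 replicate 1 it was -0.75 (adjusted p = 0.00254), and without any 1 of the others the call was lost (adjusted p 0.0576 to 0.0894). Of 8 neuroectoderm markers 1 was higher (Otx2) and 3 lower (Sox1, Hesx1 and Tubb3), and their part in the result was not tested.

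Foxn2 and Foxn3, broadly made members of which Foxn3 is tied to the DNA damage checkpoint, were at 8.80 ± 0.06 and 8.61 ± 0.07 (SD, n = 3) in control cells and 8.64 ± 0.02 and 8.57 ± 0.02 with miR-302. The Foxn2 groups were separate by a small margin, but the gene was not called (-0.16 ± 0.07 SE, adjusted p = 0.154), and Foxn3 values overlapped. Foxn1, the factor of thymic epithelium and hair, was 5.37, 5.89 and 5.63 against 5.88, 6.08 and 6.10, with an overlap of 0.01 between the highest control and the lowest miR-302 array (adjusted p = 0.114).

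Foxa2, which opens endoderm and floor plate genes, lay just inside the threshold, and Foxq1, a factor of hair and stomach epithelium, just outside it. Foxa2 read 6.21, 6.24 and 6.19 in control cells and 6.54, 6.42 and 6.44 with miR-302, a difference of 0.25 ± 0.07 (SE; limma, adjusted p = 0.0497). The groups were separate, but the call was lost without any 1 of the 6 arrays (adjusted p 0.0511 to 0.152). Foxq1 read 5.06, 4.87 and 5.02 against 5.18, 5.41 and 5.48, a difference of 0.37 ± 0.10 (SE; adjusted p = 0.0524). It was called without miR-302 replicate 1 (adjusted p = 0.0122), and its level lies below the olfactory receptor yardstick. The differences of Foxa1 and Foxa3 were 0.11 ± 0.08 and 0.18 ± 0.11 (SE), and neither was called; Foxa3 was called higher without miR-302 replicate 1 (adjusted p = 0.0286). Of 8 primitive endoderm markers 3 were higher (Lama1, Pdgfra and Dab2) and 1 lower (Gata4). Of 7 markers of mesendoderm 2 were higher (Lhx1, and Eomes, which is also on the trophectoderm list). The part of these markers in the Foxa2 result was not tested.

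Foxh1, the Smad partner in Nodal signalling, was 9.02, 8.97 and 9.05 in control cells and 9.15, 9.28 and 9.31 with miR-302. The values did not overlap, yet the difference of 0.23 ± 0.07 (SE) did not pass the threshold (limma, adjusted p = 0.0806). It was called without miR-302 replicate 1 (0.28 ± 0.06 SE, adjusted p = 0.0261), and over the alternative settings its adjusted p ran from 0.0224 to 0.217.

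The Foxj members lay above the median level, and none was called by limma or had an unadjusted p under 0.05. Foxj1, the master regulator of motile cilia, read 8.34, 7.92 and 8.16 in control cells and 7.40, 8.19 and 8.29 with miR-302. Foxj2 read 9.26 on all 3 control arrays and 8.69, 9.39 and 9.51 with miR-302. In both genes replicate 1 lay below and the other 2 within or above the control range, so the sign of the difference turned when it was left out, from -0.18 to 0.10 for Foxj1 and from -0.06 to 0.19 for Foxj2. Foxj3 was 8.03 ± 0.03 and 8.04 ± 0.12 (SD, n = 3).

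The remaining members are mostly factors of single lineages, and all were at 6.26 or lower over the 6 arrays. They comprise Foxb1 and Foxb2 of the brain, Foxc1 and Foxc2 of mesoderm and vessels, Foxd1 of kidney stroma, Foxd2, Foxd4, Foxe1 of the thyroid, Foxe3 of the lens, Foxf1 and Foxf2 of visceral mesenchyme, Foxl1 of gut mesenchyme, Foxl2 of the ovary, and Foxs1. No gene of this group was called. Their lowest difference was -0.31 for Foxd2 (5.55, 5.48 and 5.91 against 5.14, 5.45 and 5.43), whose groups were apart by 0.03, and their highest was 0.39 for Foxe3 (6.06, 5.69 and 5.64 against 6.43, 5.67 and 6.46), whose groups overlapped. Foxc1 values were separate too (5.12, 4.93 and 5.08 against 5.19, 5.28 and 5.52), with a limma adjusted p of 0.124. So were those of Foxb2 (6.03, 6.09 and 6.11 against 6.20, 6.25 and 6.13), with a limma adjusted p of 0.318. Of 8 mesoderm markers 2 were higher (Twist1, and Hand1, which is also on the trophectoderm list) and 6 were not called. The part of these markers in these values was not tested.

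Genes that work with the family were read from 6 lists, of which 93 of 103 genes were measured; 7 were higher and 14 lower. The share called was 22.6%, against 16.4% of all genes and 26.7% of genes at or above the median level. Of all genes 7.18% were higher and 9.25% lower. The single lists lie at different levels. Their counts are therefore also to be read against the 26.7% called at or above the median level and the 6.12% below it. Of 21 FoxO target genes, which the FoxO proteins are known to activate, 2 were higher and 4 lower (median log2 difference -0.10). Those lower included Cat, which encodes catalase (-0.70 ± 0.06 SE, limma adjusted p = 0.00144), Cdkn1b, the cell cycle inhibitor p27 (-0.55 ± 0.07 SE, adjusted p = 0.00515), Pdk4, a brake on glucose oxidation (-0.74 ± 0.13 SE, adjusted p = 0.0104), and the mitochondrial dismutase gene Sod2. The apoptosis gene Bcl2l11, which encodes Bim, and the repressor gene Bcl6 were higher, by 0.66 ± 0.12 and 0.44 ± 0.09 (SE). The list thus held members on both sides, as the FoxO genes themselves did.

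Of 19 FoxO regulators, 2 were higher and 1 lower (median 0.07). The 14-3-3 genes Ywhab and Ywhag, whose proteins hold phosphorylated FoxO in the cytoplasm, rose by 0.43 ± 0.07 and 0.27 ± 0.07 (SE; limma, adjusted p = 0.00936 and 0.0415). Pdpk1, the kinase that activates AKT, changed by -0.31 ± 0.07 (SE; adjusted p = 0.0316). Ywhag and Pdpk1 lost their calls in 5 of the 6 fits without 1 array, those that kept miR-302 replicate 1.

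Of 11 Foxh1 partners and Nodal-Foxh1 target genes, 2 were lower, Lefty1 and Lefty2, and 9 were not called (median -0.20). These feedback inhibitors of Nodal are targets of Foxh1 and are also reported miR-302 targets, and they changed by -2.66 ± 0.14 and -2.97 ± 0.11 (SE) while Foxh1 itself was not called. Of 13 genes tied to Foxa in endoderm and midline, 1 was lower, Gata4 (-0.43 ± 0.11 SE, adjusted p = 0.0375), and 12 were not called (median 0.07). By mean level, 7 of the 13 lay below the olfactory receptor yardstick.

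Of 16 genes tied to Foxj1 and motile cilia, 3 were lower and 13 were not called (median -0.09). Rsph1, a radial spoke gene, fell from 8.35 ± 0.16 to 6.66 ± 0.38 (SD, n = 3), a difference of -1.69 ± 0.19 (SE; adjusted p = 0.00286), while Cfap126 and Tekt2 changed by -0.34 ± 0.08 and -0.30 ± 0.08. Of 13 Foxk and Foxp cofactors, 3 were higher and 3 lower (median -0.09). Higher were Sin3b (0.58 ± 0.12 SE), Ogt and Ctbp2, and lower were the deacetylase genes Hdac1 and Hdac2 (-0.32 ± 0.08 and -0.34 ± 0.07 SE) and Asxl2. All 6 cofactor calls were lost in 4 or 5 of the 6 fits without 1 array.

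**Figure D4:**
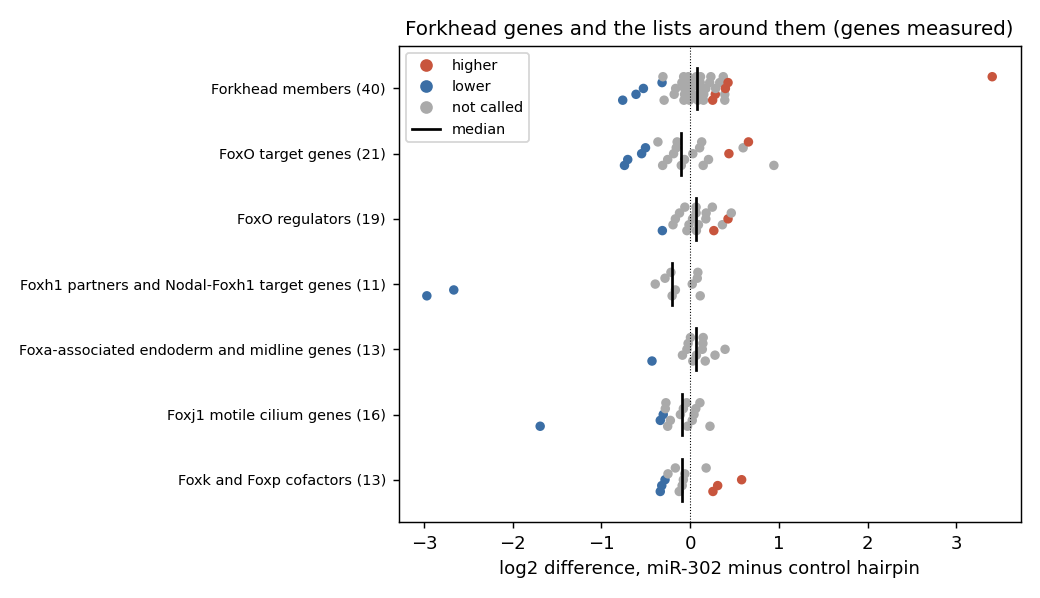
Log2 difference between miR-302 and control hairpin for each measured gene of the forkhead family and of 6 lists around it, with the median as a black line. Called genes lie on both sides of 0 among the forkhead members, the FoxO targets, the FoxO regulators and the cofactors, and Lefty1, Lefty2 and Rsph1 lie farthest to the left.

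Genes beside the members on the chromosome were taken by their order in RefSeq. There, 65 protein-coding neighbours that are no members were measured, of which 7 were higher and 6 lower (20.0%, against 16.4% of all genes). Next to the called members, 3 of 17 neighbour positions (17.6%) held a called gene, a share near that of all genes, and each of the 3 differed in the direction of the member. They were Rragb beside Foxr2 (-0.98, limma adjusted p = 0.00598), Acacb beside Foxn4 (-0.78, adjusted p = 0.0128) and Wdr45b beside Foxk2 (0.36, adjusted p = 0.0137). The other 10 called neighbours lay beside members that were not called, and 5 of them had the sign of the member. Among these 10, Anxa2 beside Foxb1 rose by 3.45 on the log2 scale (10.9-fold, limma adjusted p = 0.00022), while the difference of Foxb1 was 0.11 and not called. Tex37, the measured neighbour of Foxi3, read 4.13 and 4.27 on average and was not called (adjusted p = 0.412). The members that neighbour each other, Foxq1 with Foxf2 and Foxc1, Foxc2 with Foxl1, and Foxd2 with Foxe3, included none that was called.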

How the data were processed

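Values were read as log2 expression, which the authors made with RMA (background correction, quantile normalization, probe summary), per the submitters' processing notes. The RMA version, log base and build: not given in the sources used here. In the table, 0 columns lacked a sample. RMA makes arrays alike, so a shift of all genes cannot be seen. Groups came from sample titles.

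Of 33649 rows, 23521 name a single gene, 1814 several and 8314 none in the platform annotation; the single-gene row with the highest mean stood for a gene (22180 genes). The test was limma's moderated, two-sided one (limma 3.58.1, R 4.3.3), with Benjamini-Hochberg adjustment over all genes and a threshold of 0.05; SE is moderated. The code was tested on simulated data. Figures used matplotlib 3.10.9. The number of arrays limits precision.

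Members and lists were chosen with earlier results of these data known. By rule, values were given for called members, the 8 with the highest mean, the 4 uncalled with the smallest p, up to 3 called genes per list, and the defining markers of cell types; other members, Bcl2l11, Bcl6, Sod2, the further cofactors and the neighbours were named after their values were seen. Of the symbols that begin with Fox but are no members, only antisense genes were read. Some listed genes were not analysed here. Alternatives tried were array weights, a block for the replicate number, fits with 1 array left out, testing only genes at or above the median, a robust prior with an intensity trend, centring on the median, quantile normalization once more, averaging or separately testing a gene's rows, a per-gene test without moderation, a fold of 1.5, and only members above the olfactory receptor yardstick.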

Additional observations from a re-analysis of the deposited data

How the results depend on the processing

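Of the 9 calls, those of Foxi3 and Foxr2 were kept in all 14 alternative settings that tested them. Leaving out 1 array gave 685 to 2484 genes higher and 1043 to 2911 lower, 1 to 8 forkhead genes higher and 1 to 6 lower, and 1 to 12 genes of the pathway lists higher and 6 to 20 lower; the high ends came without miR-302 replicate 1. With the replicate number as a block, 964 genes were higher and 1329 lower, of the forkhead genes 1 (Foxi3) and 2 (Foxr2 and Foxn4), and of the list genes 3 and 6. Same-numbered arrays deviated together at r = 0.008 to 0.019 across genes, so the numbers are not taken to pair the samples. The unmoderated test gave 998 and 1343 for all genes, 3 and 2 for forkhead genes, and 7 list genes lower. Array weights gave 2617 genes, 9 forkhead genes and 12 list genes higher. Median centring left 2 forkhead genes higher and 4 lower, with 1437 and 2254 of all genes. A fold of 1.5 left 1 higher and 2 lower. A filter at the median level and an intensity trend each gave 11 list genes higher. The members' median log2 difference, 0.08, stayed between 0.04 and 0.10 under every alternative run on it. Uncalled Foxj2 turned from -0.06 to 0.15 as the mean of its rows and to 0.12 with array weights, and ran from -0.22 to 0.19 without 1 array; uncalled Foxn3 turned from -0.04 to 0.0028 after a further quantile normalization. Where no value is given beside a change, the cause was not tested. Whether low rows lie above background was not measured.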

Other observations

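Of the antisense and divergent genes beside forkhead members, Fendrr (next to Foxf1) was 4.85 ± 0.19 (SD, n = 3) in control cells and 4.66 ± 0.10 with miR-302, Foxd2os was 4.38 ± 0.34 and 4.37 ± 0.28, and the difference of Foxl2os was -0.26 ± 0.13 (SE). None was called (limma, adjusted p = 0.322, 0.983 and 0.258).

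Some members had a further row that did not stand for the gene. The second row of Foxe1 differed by 0.06, that of Foxj2 by 0.36 and that of Foxq1 by 0.13 on the log2 scale, and none was called when every row was tested on its own (limma, adjusted p = 0.811, 0.390 and 0.459). For Foxj2 this row had the opposite sign to the row used, and it lay between 3.66 and 4.72 over the 6 arrays, against 9.26 on the control arrays for the row used. A row shared by Foxp3, Ccdc22 and Ppp1r3f read 7.81, 7.85 and 7.79 in control cells and 7.66, 7.66 and 7.57 with miR-302, and a row shared by Foxb1 and B230323A14Rik averaged 4.64 and 4.73.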
